A study of Mus musculus with 18 samples.

Results

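The genes described here encode the contractile apparatus of striated muscle: 40 symbols, of the 22180 genes measured, taken from a list of sarcomere and excitation-contraction genes, each read from the probe set with its highest mean over all 18 arrays. Of the 40, 12 are cardiac isoforms, including those shared by heart and slow skeletal muscle, 19 are skeletal isoforms, and 9 are common to heart and skeletal muscle. All 40 were measured and none was removed by a filter on low signal.

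Mouse embryonic stem cells (ESCs) of the strain F1 (C57Bl6N x 129Sv) were profiled as Pax7+/+ wild type and as Pax7-/-, without functional Pax7, the paired-box factor of muscle satellite cells. Each genotype was sampled at day 0, undifferentiated and kept with LIF (leukaemia inhibitory factor), and at day 7 and day 21 of differentiation through embryoid bodies and their outgrowths, without LIF and with the supplements RA and ITS. Each of the 6 genotype-by-day groups had 3 arrays of total RNA labelled as biological replicates, so p-values measure the spread between these samples. The number of independent lines per genotype is not given in the sources used here, and all samples are whole cultures of mixed cells.

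The sarcomere is the repeating unit in which thick filaments of myosin slide along thin filaments of actin, with troponin and tropomyosin on the actin as the calcium switch. Most of its proteins come in a cardiac, a slow skeletal and a fast skeletal form encoded by separate genes, and the embryonic heart also uses several forms named for skeletal muscle, among them Acta1 and Tnni1. Embryoid bodies are known for forming beating cardiac cells, and also skeletal muscle cells, which require MyoD-family factors.

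The arrays fell into 2 sets by the SD of their log2 values over all probe sets. The 10 narrow arrays had SDs of 1.37 to 1.45, the 8 wide arrays 1.79 to 1.85, and every genotype-by-day group held arrays of both. Correlations over genes were 0.911 to 0.994 between arrays of the same set and 0.674 to 0.822 between sets, so the values of single arrays are read within a set. The fit with 1 common shift for the array set, given below, also draws on differences between sets after that shift. The probe set for Pax7 read 5.61 to 6.35 log2 in Pax7+/+ and 5.86 to 6.37 in Pax7-/- on narrow arrays, and 4.68 to 5.52 and 4.76 to 5.53 on wide arrays. The sources used here do not place this probe set inside or outside the disrupted stretch, so it checks no label.

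On wide arrays, in a fit chosen after seeing the data, day 21 cultures carried more RNA of the heart form of the contractile apparatus. All 12 cardiac members were higher there at day 21 than at day 0, led by Actc1 (cardiac actin, 12.1-fold), Myl7 (atrial myosin light chain, 11.8-fold), Tnnt2 (cardiac troponin T, 6.77-fold) and Myl3 (ventricular and slow myosin light chain, 6.7-fold). Of the 19 skeletal members 6 were higher and 4 lower, and of the 9 common members 6 were higher. On narrow arrays only Actc1 and Myl3 passed the test, both at 1.55-fold. In whole cultures, fewer cells of a type and less RNA per cell cannot be told apart.

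These values come from limma with Benjamini-Hochberg adjustment over all genes, as the mean difference of both genotypes in a fit with a separate day effect for each array set (the set-by-day fit), chosen after seeing the data. On wide arrays, with 2 arrays at day 0 and 3 at day 21, 28 of the 40 members passed adjusted p under 0.05, 24 higher and 4 lower, where 31.6% of all genes passed, 15.8% higher and 15.8% lower. On narrow arrays, with 4 and 3 arrays, 2 of 40 passed, where 8.05% of all genes did, so this count is below the share of all genes. The other 38 lay between -0.34 and 0.42 on the log2 scale. Median differences on wide arrays were 1.54 for cardiac, 0.15 for skeletal and 0.57 for common members, against 0.01 for all genes. The corresponding medians on narrow arrays were 0.29, -0.01 and -0.05, again against 0.01.

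Leaving out each of the 18 arrays in turn gave 21 to 28 calls on wide arrays, and 17 of the 28 members passed in every such fit: Actc1, Myh6, Myh7, Myl3, Myl7, Tnnc1, Tnnt2, Mybpc3, Ryr2, Acta1, Myl1, Mylpf, Tnni1, Tnnt3, Actn2, Ttn and Ldb3. On narrow arrays the count was 0 to 3. It was 0 without replicate 1 of Pax7-/- day 21, the only narrow array of that group, and 1 without replicate 1 of Pax7+/+ day 21.

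**Figure D1:**
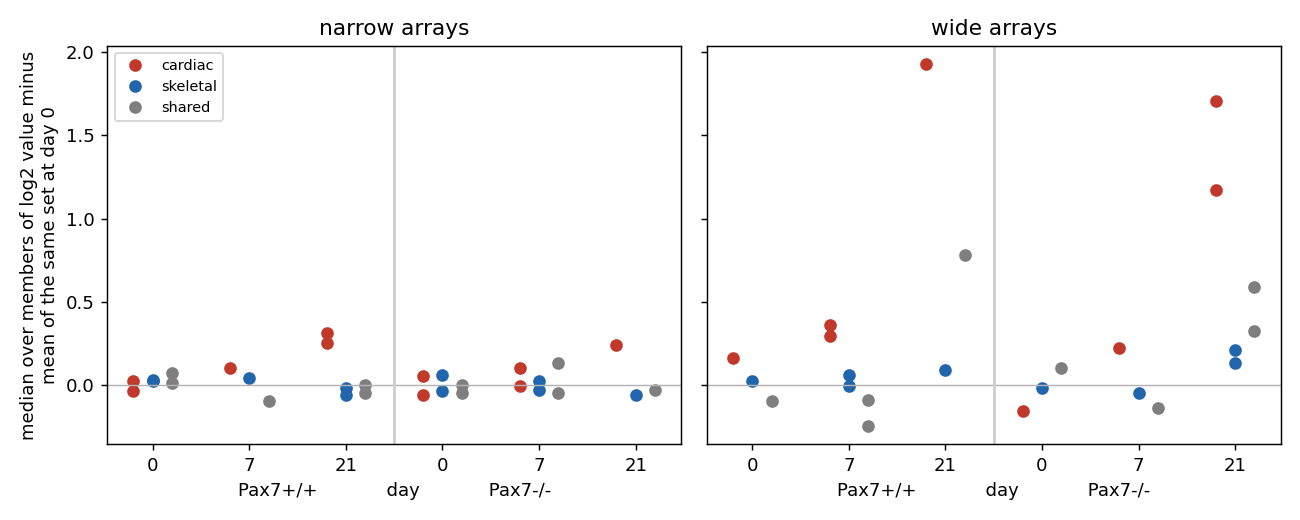
Median over the 12 cardiac, 19 skeletal and 9 common members of the log2 value minus the day 0 mean of the same array set, 1 point per array and class, by genotype and day, narrow arrays left and wide arrays right. The 3 wide day 21 arrays have the highest cardiac medians, while the skeletal medians stay near 0 at every day in both sets.

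The upstream sequences of 6 members that the results turn on are given to show where motifs known from muscle genes lie in them: 4 (Actc1, Acta1, Myl3 and Myl7) hold a CArG box, the binding motif of serum response factor, and Tnnt2 and Mylpf do not. Each is the 250 bases before the RefSeq transcript start, build GRCm38.p6, 5′ to 3′ in the direction of the gene, with matches to the CArG box, to CATTCC (the motif of TEAD factors) or to TATAAA in capitals, either strand. Actc1 is at chr2:114052876-114053125 (minus strand), Acta1 at chr8:123894776-123895025 (minus), Myl3 at chr9:110763428-110763677 (plus), Myl7 at chr11:5898783-5899032 (minus), Tnnt2 at chr1:135836084-135836333 (plus) and Mylpf at chr7:127211358-127211607 (plus).
Actc1: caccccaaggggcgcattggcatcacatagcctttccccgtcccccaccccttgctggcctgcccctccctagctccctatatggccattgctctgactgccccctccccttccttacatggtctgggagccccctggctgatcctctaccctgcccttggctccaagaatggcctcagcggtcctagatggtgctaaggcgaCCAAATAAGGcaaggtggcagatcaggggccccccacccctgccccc
Acta1: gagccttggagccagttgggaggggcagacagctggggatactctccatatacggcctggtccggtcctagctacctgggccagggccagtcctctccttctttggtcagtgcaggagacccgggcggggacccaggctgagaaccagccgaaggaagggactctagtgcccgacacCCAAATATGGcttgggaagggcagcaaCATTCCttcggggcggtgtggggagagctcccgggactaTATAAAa
Myl3: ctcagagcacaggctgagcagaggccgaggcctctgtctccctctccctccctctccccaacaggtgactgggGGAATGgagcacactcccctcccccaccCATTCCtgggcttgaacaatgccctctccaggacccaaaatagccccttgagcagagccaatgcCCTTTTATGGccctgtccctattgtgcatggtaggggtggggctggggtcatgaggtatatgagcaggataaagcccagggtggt
Myl7: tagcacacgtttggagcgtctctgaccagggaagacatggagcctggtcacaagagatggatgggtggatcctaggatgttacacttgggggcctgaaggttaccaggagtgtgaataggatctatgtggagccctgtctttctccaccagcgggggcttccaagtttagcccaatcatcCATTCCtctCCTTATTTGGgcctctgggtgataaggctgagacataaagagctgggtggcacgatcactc
Tnnt2: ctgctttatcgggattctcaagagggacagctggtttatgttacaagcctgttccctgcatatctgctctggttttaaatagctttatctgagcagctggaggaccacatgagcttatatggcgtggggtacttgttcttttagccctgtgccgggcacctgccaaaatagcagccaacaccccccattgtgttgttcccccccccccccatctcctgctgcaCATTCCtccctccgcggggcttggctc
Mylpf: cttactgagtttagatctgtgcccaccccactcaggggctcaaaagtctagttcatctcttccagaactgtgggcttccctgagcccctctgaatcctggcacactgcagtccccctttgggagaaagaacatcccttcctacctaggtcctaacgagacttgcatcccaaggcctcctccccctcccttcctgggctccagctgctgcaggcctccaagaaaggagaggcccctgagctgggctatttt

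The CArG box lies 47 to 38 bases before the start in Actc1, 73 to 64 in Acta1, 85 to 76 in Myl3 and 61 to 52 in Myl7. Tnnt2 holds a CATTCC 27 to 22 bases before its start, and Mylpf none of the 3 motifs. Of the 40 members 34 had an entry, and Actn3, Tnni2, Tnnt3, Neb, Myom2 and Tcap had none. A member was counted where any of its entries matched, and 5 members had several entries, while the shares of all promoters are over single entries. A CArG box was present in 7 of the 34 (Actc1, Myl3, Myl7, Acta1, Myh4, Myom1 and Ldb3) and in 1.47% of 32851 promoters of the same length. A MEF2 site was in 5 of the 34 (Mybpc3, Myh1, Myh4, Myh8 and Ttn) and in 2.92% of all promoters, and CATTCC in 12 of the 34 against 12.6%. The letters TATAAA were in 8 of the 34 against 12.4%. In Myh8 the match lay inside the MEF2 site. Myh1 and Myh4 had a match inside that site and also outside it, 32 to 27 bases before the start in Myh1, and 213 to 208 and 31 to 26 in Myh4. The E-box CANNTG was in 28 of the 34 and in 66.2% of all promoters. Of the 7 members with a CArG box, Myh4 did not pass between day 0 and day 21 on wide arrays, as was so for 12 of all 40 members. A link between motif and change was not tested.

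Among the thin filament genes, the cardiac actin gene Actc1 had the largest rise. Narrow arrays gave Actc1 5.18 and 4.82 log2 in Pax7+/+ at day 0, 4.69 at day 7 and 5.40 and 5.37 at day 21, and 4.83 and 4.84, then 4.97 and 4.58, then 5.76 in Pax7-/-. Wide arrays gave 4.12, then 4.02 and 4.37, then 7.47 in Pax7+/+, and 3.61, then 4.61, then 7.85 and 7.17 in Pax7-/-. The day 21 arrays lie above all day 0 and day 7 arrays within both sets. Against day 0 this held for 4 members (Actc1, Myh7, Myl3 and Mybpc3, the last with 5.17 on either side at its closest) and for 4.22% of all genes. The difference between day 21 and day 0 was 3.60 ± 0.20 (SE) on wide arrays (adjusted p = 1.35e-09) and 0.63 ± 0.17 on narrow arrays (adjusted p = 0.0235).

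Acta1, the skeletal actin gene that embryonic heart also uses, read 7.16 to 7.43 on the 4 narrow day 0 arrays and 7.39 to 7.77 on the 3 narrow day 21 arrays. On wide arrays Acta1 read 6.08 in Pax7+/+ and 5.36 in Pax7-/- at day 0, 6.0 and 6.03, and 6.30, at day 7, and 7.67, and 7.74 and 7.73, at day 21. The wide day 21 arrays agree closely and lie above every earlier wide array, while the narrow ones overlap with day 0. The difference was 1.99 ± 0.17 on wide arrays (adjusted p = 1.45e-07) and 0.29 ± 0.14 on narrow arrays (adjusted p = 0.298). Actc1 and Acta1 encode near-identical proteins, and how far their probe sets share signal was not tested.

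Of the genes for troponin, the calcium switch, Tnnt2, Tnnc1, Tnni3, Tnni1 and the fast skeletal Tnnt3 were higher at day 21 than at day 0 on wide arrays. On narrow arrays no troponin gene passed between these days. Tnnt2, cardiac troponin T, read 5.88 and 6.41, then 5.91, then 6.38 and 6.33 on the narrow Pax7+/+ arrays of days 0, 7 and 21, and 6.40 and 6.36, then 6.63 and 6.71, then 7.21 on those of Pax7-/-. On wide arrays Tnnt2 read 5.43, then 5.36 and 5.43, then 8.25 in Pax7+/+, and 5.03, then 5.26, then 8.08 and 7.76 in Pax7-/-. The 3 wide day 21 arrays stand far above the other wide arrays, and the narrow ones overlap except for the Pax7-/- array. The difference was 2.76 ± 0.26 on wide arrays (adjusted p = 4.38e-07) and 0.42 ± 0.22 on narrow arrays (adjusted p = 0.338).

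Tnni1, the slow skeletal troponin I that the embryonic heart uses before Tnni3, read 4.82 in Pax7+/+ and 4.81 in Pax7-/- at day 0 on wide arrays, 5.28, 5.15 and 5.14 at day 7, and 6.84 in Pax7+/+ and 6.31 and 6.13 in Pax7-/- at day 21. Its wide difference of 1.69 ± 0.14 (adjusted p = 1.75e-07) was larger than the 0.88 ± 0.21 of Tnni3, the adult cardiac troponin I (adjusted p = 0.00419), though the difference between the 2 was not tested. Tnnc1, the cardiac and slow troponin C, differed by 1.48 ± 0.21 on wide arrays. On narrow arrays Tnnc1 ran from 7.26 to 7.48 at day 0 and from 7.06 to 7.34 at day 21, so the sets did not share a direction. Of the fast skeletal troponins, Tnnt3 was higher on wide arrays (0.85 ± 0.16, adjusted p = 0.000655), while Tnnc2, Tnni2 and the slow skeletal Tnnt1 did not pass. Tpm2, a tropomyosin of slow muscle and smooth muscle, did not pass either.

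**Figure D2:**
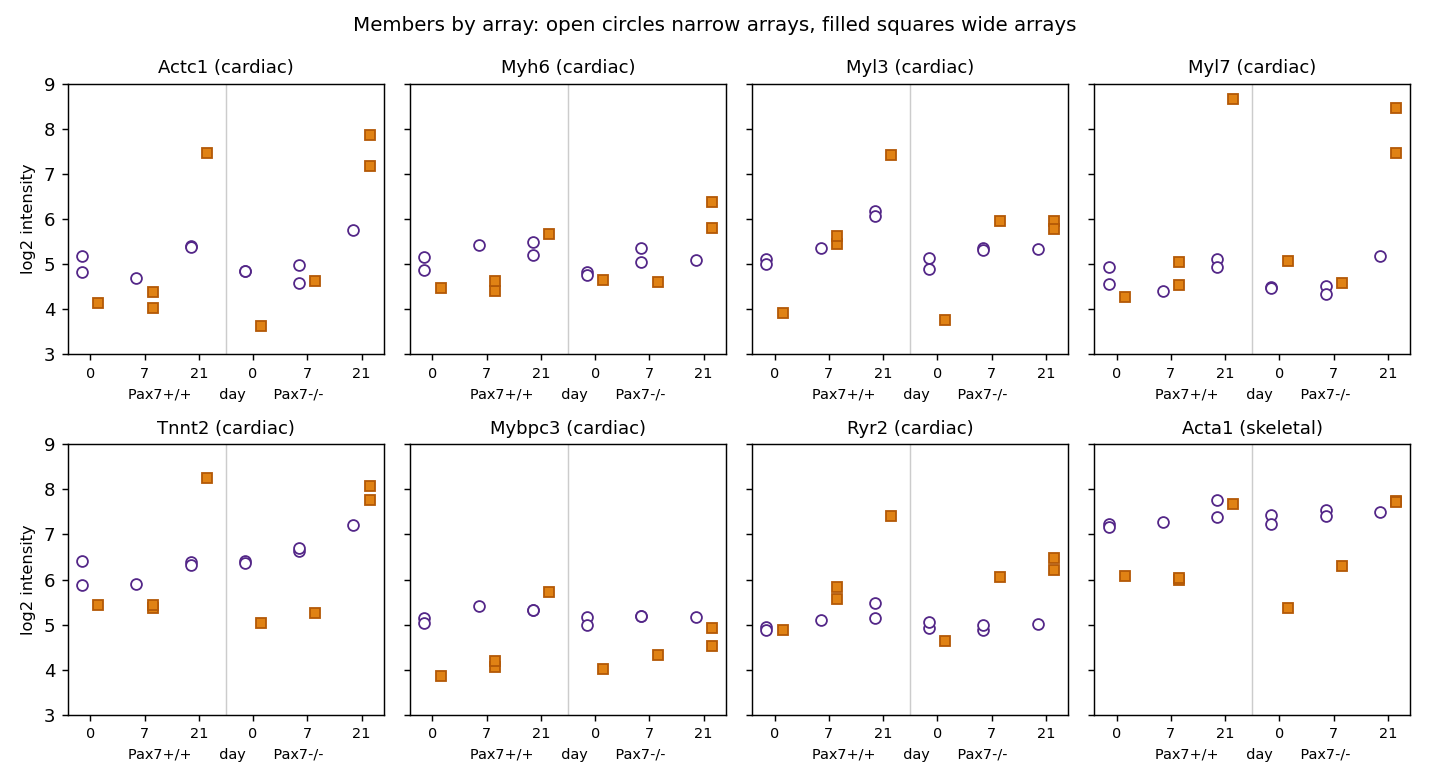
Log2 intensity of 8 members by genotype and day, 1 point per array, open circles for narrow and filled squares for wide arrays. Actc1, Myl7, Tnnt2 and Acta1 are high on all 3 wide day 21 arrays, while Myl3 on the day 21 arrays is high in Pax7+/+ and near its day 7 level in Pax7-/-.

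In the thick filament, the light chain genes Myl7 and Myl3 had the largest differences. Myl7, the regulatory light chain of atrial and early embryonic heart muscle, read 4.55 and 4.93, then 4.40, then 5.11 and 4.93 on narrow Pax7+/+ arrays, and 4.49 and 4.47, then 4.50 and 4.34, then 5.18 on narrow Pax7-/- arrays. On wide arrays Myl7 read 4.27, then 4.52 and 5.04, then 8.65 in Pax7+/+, and 5.07, then 4.58, then 8.47 and 7.45 in Pax7-/-. All 3 wide day 21 arrays lie more than 2 log2 units above the other 5 wide arrays. The difference from day 0 was 3.56 ± 0.29 on wide arrays (adjusted p = 9.52e-08).

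Myl3, the essential light chain of ventricle and slow muscle, read 5.10 and 5.0, then 5.35, then 6.18 and 6.07 on narrow Pax7+/+ arrays of days 0, 7 and 21, and 5.12 and 4.88, then 5.35 and 5.31, then 5.32 on narrow Pax7-/- arrays. On wide arrays Myl3 read 3.90, then 5.43 and 5.62, then 7.41 in Pax7+/+, and 3.75, then 5.96, then 5.94 and 5.77 in Pax7-/-. Every day 7 and day 21 array lies above the day 0 arrays of its set, and at day 21 the Pax7+/+ arrays lie above the Pax7-/- arrays in both sets. The latter order held for 17.3% of all genes. Over both genotypes day 21 exceeded day 0 by 2.75 ± 0.16 on wide arrays (adjusted p = 3.36e-09) and 0.63 ± 0.14 on narrow arrays (adjusted p = 0.00617, but 0.304 without replicate 1 of Pax7-/- day 21).

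The other cardiac light chains changed less: Myl4, the atrial essential chain, by 0.82 ± 0.18 and Myl2, the ventricular regulatory chain, by 0.45 ± 0.15 on wide arrays. Myl2 is thus the least changed cardiac member there, and Myl7 and Actc1 the most. Neither of these light chain calls, nor that of Tnni3, held without each single array.

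Mylpf, the regulatory light chain of fast skeletal muscle, moved the other way. On wide arrays Mylpf read 6.22, then 5.45 and 5.31, then 3.62 in Pax7+/+, and 6.06, then 4.27, then 4.14 and 4.90 in Pax7-/-. It was 6.06 or more on both wide day 0 arrays and 4.90 or less on the 3 wide day 21 arrays, whereas on narrow arrays it ran from 4.15 to 4.57 at day 0 and from 4.10 to 4.27 at day 21. The wide difference was -1.98 ± 0.26 (0.253 times the day 0 level, adjusted p = 1.62e-05). Myl1, the essential light chain of fast muscle, rose by 0.53 ± 0.12 on wide arrays, while its narrow day 21 arrays lie below those of day 0.

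Of the myosin heavy chains, the cardiac Myh6 (alpha) and Myh7 (beta, also slow skeletal) were higher. Myh6 read 4.46 in Pax7+/+ and 4.65 in Pax7-/- at day 0 on wide arrays, 4.40, 4.62 and 4.59 at day 7, and 5.66 in Pax7+/+ and 6.38 and 5.79 in Pax7-/- at day 21. Its narrow arrays ran from 4.76 to 5.16 at day 0 and from 5.08 to 5.48 at day 21, with overlap. The wide differences were 1.37 ± 0.20 for Myh6 (adjusted p = 5.22e-05) and 1.6 ± 0.21 for Myh7 (adjusted p = 2.27e-05), and Myh7 was also higher on every narrow day 21 array than on every narrow day 0 array (6.21 to 6.54 against 5.88 to 6.05). Myh3, the embryonic heavy chain, differed by 0.72 ± 0.25 on wide arrays (adjusted p = 0.0353), with the 3 wide day 21 arrays spread from 3.98 in Pax7+/+ to 5.58 in Pax7-/-. The fast heavy chains Myh1, Myh2 and Myh4 and the perinatal Myh8 did not pass on either set. Myh6 and Myh7, and Myh1, Myh2, Myh3, Myh4 and Myh8, are near-identical copies, and how far their probe sets share signal was not tested.

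Among the myosin-binding proteins C, which brace the thick filament, the cardiac Mybpc3 was 1.21 ± 0.18 higher on wide arrays (adjusted p = 5.97e-05). It read 3.86 and 4.02 on the wide day 0 arrays and 5.72 in Pax7+/+ and 4.92 and 4.53 in Pax7-/- at day 21. The fast skeletal Mybpc2 was 0.46 log2 lower there (-0.46 ± 0.17, adjusted p = 0.0476), and the slow skeletal Mybpc1 did not pass between day 0 and day 21.

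**Figure D3:**
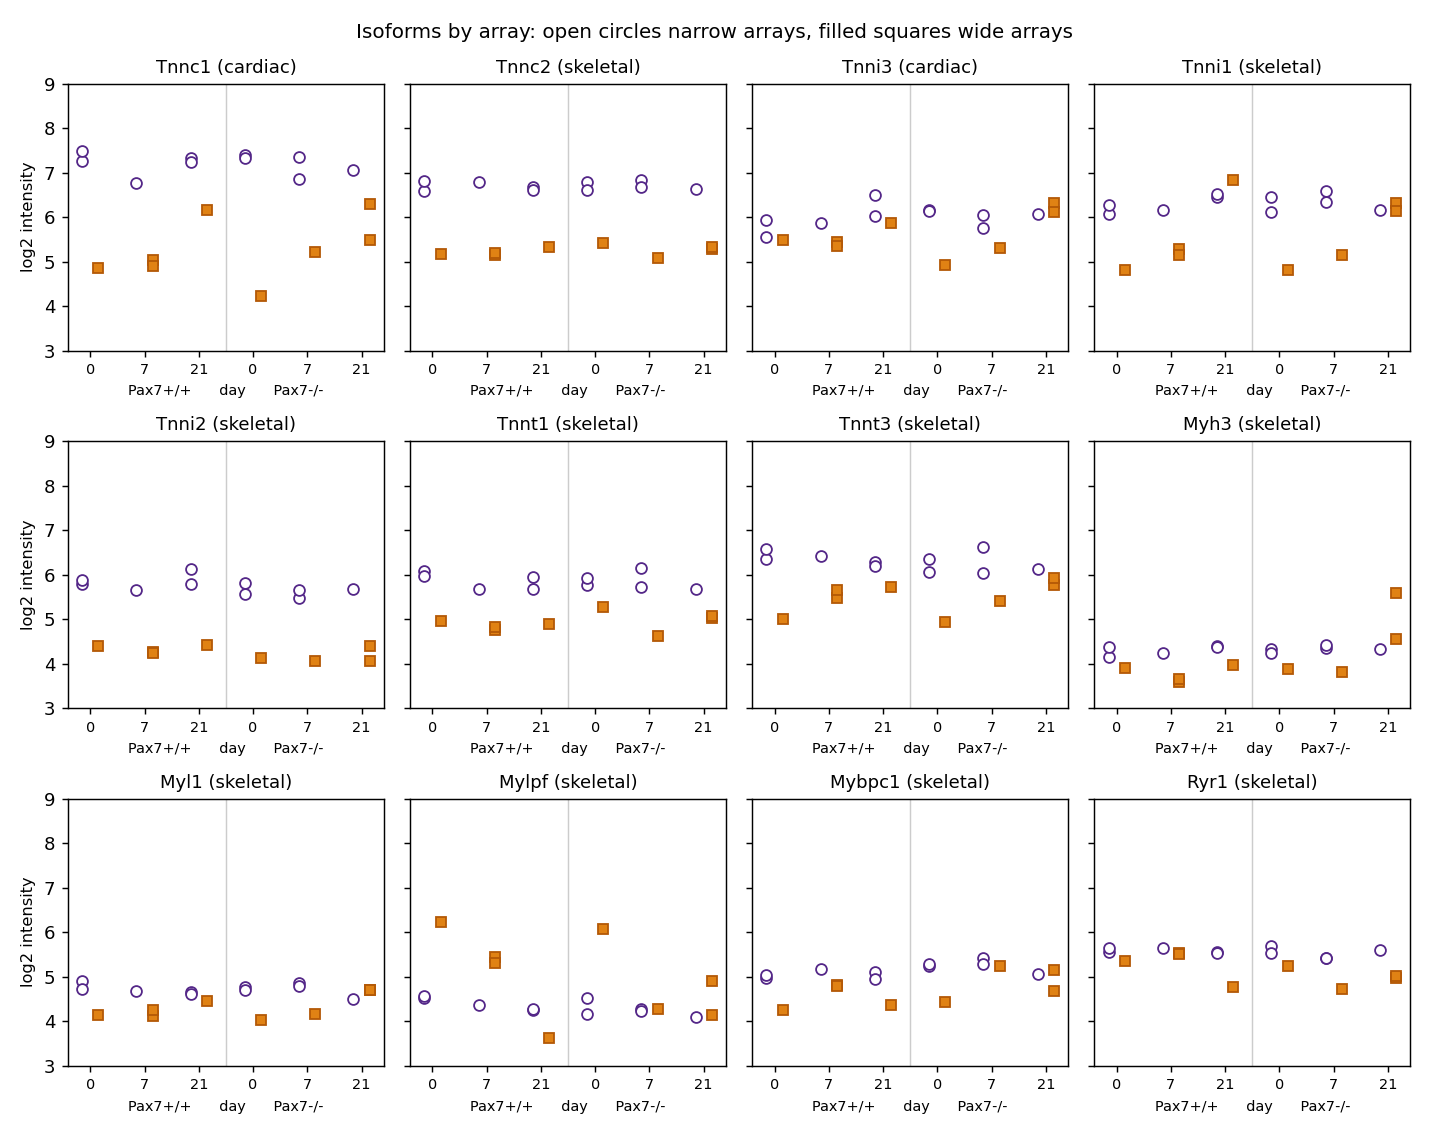
Log2 intensity of 12 further isoforms by genotype and day, 1 point per array, open circles for narrow and filled squares for wide arrays. Tnni1 and Tnnc1 are higher and Mylpf lower on the wide day 21 arrays than on the wide day 0 arrays, while Tnnc2, Tnni2 and Tnnt1 run level.

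Of the genes common to both muscles, titin and the Z disc genes changed most. Ttn, the giant elastic filament from Z disc to M band, read 4.53 to 4.77 on the wide day 0 arrays, 4.20 to 4.28 at day 7 and 6.01 to 6.53 at day 21, so day 21 stood apart from both earlier days. The day 21 minus day 0 difference was 1.65 ± 0.14 for Ttn (adjusted p = 1.87e-07) and 1.15 ± 0.18 for Actn2, the Z disc crosslinker of heart and skeletal muscle (adjusted p = 9.12e-05). Tcap (telethonin, which caps titin at the Z disc, 0.80 ± 0.19), Ldb3 (a Z disc scaffold, 0.78 ± 0.14), Myom1 (an M band crosslinker, 0.57 ± 0.15) and Des (desmin, 0.48 ± 0.16) were also higher on wide arrays. On narrow arrays no common member passed in limma at adjusted p under 0.05, and Ttn differed by 0.03 ± 0.12. The M band gene Myom2 and Ckm, the muscle creatine kinase, did not pass on either set. The fast-fibre alpha-actinin Actn3 was lower on wide arrays (-0.79 ± 0.21, adjusted p = 0.0073), and Neb (nebulin, the thin filament ruler of skeletal muscle) did not pass.

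On wide arrays the calcium release channels parted by isoform. Ryr2, the cardiac ryanodine receptor, read 4.89 in Pax7+/+ and 4.64 in Pax7-/- at day 0 on wide arrays, 5.56, 5.83 and 6.05 at day 7, and 7.42 in Pax7+/+ and 6.21 and 6.47 in Pax7-/- at day 21. The order of days is the same in both genotypes, and the Pax7+/+ array is highest at day 21. The difference from day 0 was 2.05 ± 0.18 for Ryr2 (adjusted p = 3.16e-07) and -0.40 ± 0.13 for the skeletal Ryr1 (adjusted p = 0.0277). On narrow arrays Ryr2 ran from 4.89 to 5.05 at day 0 and 5.01 to 5.48 at day 21. Cacna1s, the voltage sensor of skeletal muscle, was 0.40 ± 0.15 higher on wide arrays (adjusted p = 0.0485). The Cacna1s and Ryr1 calls were not kept without each single array, and a second probe set of Ryr1 was not tested in this fit.

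The difference between array sets was itself tested. The change from day 0 to day 21 was larger on wide than on narrow arrays for 18 members and lower for Mylpf alone (-1.81 ± 0.34, adjusted p = 0.00192), where 12.3% of all genes passed, 6.68% higher and 5.67% lower. Leaving out each array in turn gave 14 to 20 members. The largest such differences were Myl7 (3.14 ± 0.38, adjusted p = 4.62e-05), Actc1 (2.97 ± 0.26), Tnnt2 (2.34 ± 0.34) and Myl3 (2.11 ± 0.22). Over all genes the SD of the day 21 minus day 0 differences was 0.31 on narrow and 0.62 on wide arrays. The sets differ in scale by definition, and how far scale, samples or processing enter these differences was not tested.

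**Figure D4:**
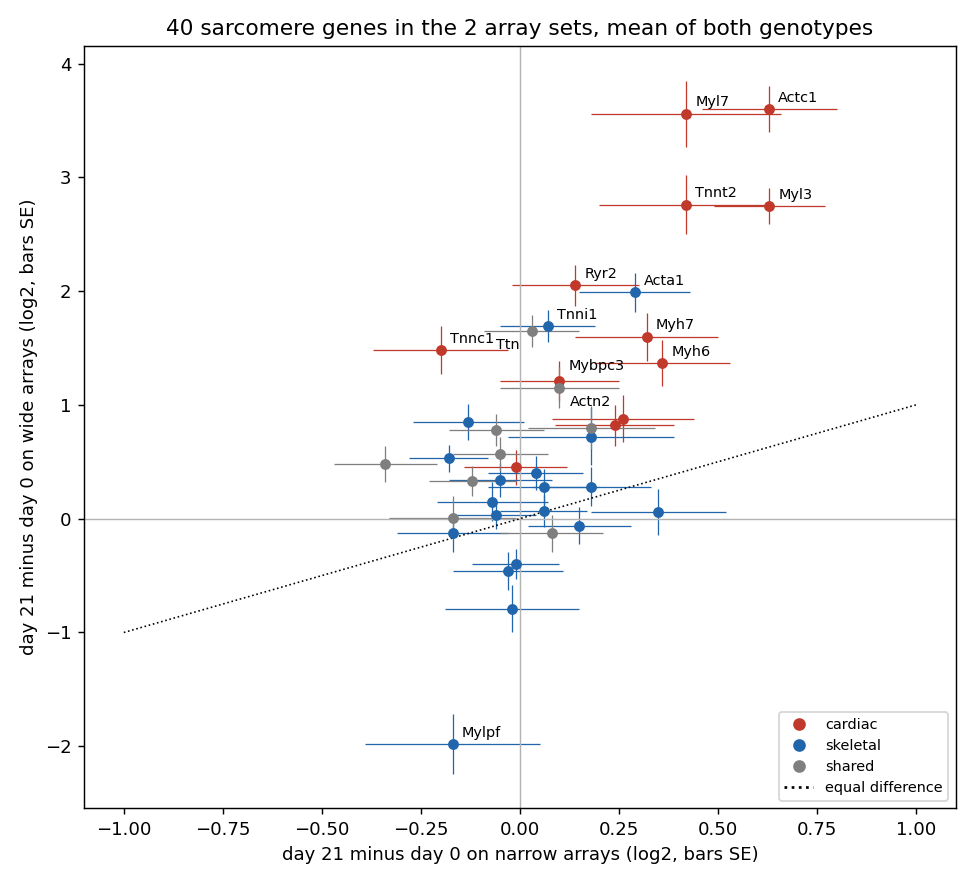
Day 21 minus day 0 (log2, mean of both genotypes, bars SE) on wide arrays against the same difference on narrow arrays for the 40 members, coloured by class, with a dotted line of equal difference. The cardiac members lie above the line, Actc1 and Myl7 highest, and Mylpf lies far below it.

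With 1 common shift for the array set instead of separate day effects, as the main comparison within each genotype, fewer members passed in limma. In Pax7+/+ 1 of 40 passed between day 0 and day 21, where 14.6% of all genes did: Myl3, by 1.89 ± 0.40 (3.69-fold, adjusted p = 0.00362). Myl3 kept its call without each of the 18 arrays. In Pax7-/- 4 passed, where 8.97% of all genes did: Actc1 (2.44 ± 0.56, 5.44-fold, adjusted p = 0.0133), Tnnt2 (1.83 ± 0.51), Acta1 (1.27 ± 0.34) and Myh6 (1.06 ± 0.31). The Pax7-/- count became 0 without replicate 2 of day 0, or replicate 2 or 3 of day 21, all wide arrays. It became 13 without replicate 1 of day 21, a narrow array, and 9 without replicate 2 of Pax7+/+ day 21. The Pax7+/+ count reached 4 at most. With all arrays the count is below the share of all genes in Pax7+/+ and near it in Pax7-/-. Neither count is thus a result about the members as a group. The within-genotype comparisons have no group in common, but share the estimate of the spread and the common shift, both fitted on all 18 arrays.

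Over both genotypes in the same fit 16 members passed, 15 higher and 1 lower (Mylpf, -0.91 ± 0.27, adjusted p = 0.0253), where 22.1% of all genes passed, 10.2% higher and 12% lower. The 15 were 10 of the 12 cardiac members, all but Myl2 and Tnnc1, with Acta1, Tnni1, Actn2, Ttn and Tcap. The count was 8 without either wide day 0 array (replicate 3 of Pax7+/+ or replicate 2 of Pax7-/-) and 9 without replicate 2 of Pax7-/- day 21. The cardiac median was 0.85 in Pax7+/+ and 0.80 in Pax7-/-, and the skeletal median 0.04 and 0.12.

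Array by array, each member's value was taken minus the mean of the day 0 arrays of the same set, which places day 0 near 0 by construction. On this scale the cardiac median exceeded the skeletal one by 0.26 to 0.37 on the 3 narrow day 21 arrays. On the wide day 21 arrays the excess was 1.85 in Pax7+/+ and 1.58 and 0.95 in Pax7-/-. The day 0 arrays, which make up that mean, ran from -0.14 to 0.14. Both ends are the 2 wide day 0 arrays, placed at equal distance from their own mean by construction. Later arrays did not enter the mean, so this range understates their spread. Every narrow and every wide day 21 array, in both genotypes, lay above the range. So did the wide day 7 arrays, at 0.29 and 0.3 in Pax7+/+ and 0.27 in Pax7-/-, while the narrow day 7 arrays, at -0.03 to 0.13, did not. Whether the wide day 7 excess goes beyond the spread between arrays cannot be decided from 2 day 0 arrays. The wide Pax7-/- day 21 arrays differed from each other by more than any day 0 arrays did.

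Between day 0 and day 7 the count of members that passed was near the share of all genes. On wide arrays 7 of 40 members passed between day 0 and day 7, 5 higher and 2 lower, where 19.3% of all genes passed, 10.3% higher and 8.99% lower, so the count is no result about the members as a group. Myl3 (1.88 ± 0.16, 3.68-fold, adjusted p = 4.7e-07) and Ryr2 (1.07 ± 0.18, adjusted p = 0.00051) led, with Mybpc1, Des and Tnnt3 by 0.52 to 0.66. The lower ones were Mylpf (-1.23 ± 0.26, adjusted p = 0.00245) and Actn3 (-1.18 ± 0.21, adjusted p = 0.000585). Actc1 (0.51 ± 0.20, adjusted p = 0.0845), Tnnt2 (0.17 ± 0.26) and Myl7 (0.03 ± 0.29) did not pass at day 7. On narrow arrays 0 of 40 members passed in limma between day 0 and day 7, where 4.1% of all genes did, and 2 had an unadjusted p under 0.05. Within both sets Myl3 and Mybpc3 were higher on every day 7 array than on every day 0 array (3.39% of all genes) and Actn3 lower (3.92%).

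Between day 7 and day 21, 18 members were higher and Mylpf lower on wide arrays, where 13.8% of all genes passed, 6.38% higher and 7.42% lower. Myl7 differed by 3.54 ± 0.26, Actc1 by 3.09 ± 0.18, Tnnt2 by 2.59 ± 0.23 and Ttn by 2.06 ± 0.13, against 0.87 ± 0.15 for Myl3. Actc1, Myl7, Tnnt2 and Ttn were thus called higher on wide arrays in the second step and not in the first, and Myl3 and Ryr2 in both. On narrow arrays Actc1 alone passed in this step (0.84 ± 0.18, adjusted p = 0.0209), where 1.86% of all genes did. Within both sets Actc1, Myh7 and Myl7 were higher on every day 21 array than on every day 7 array (1.73% of all genes).

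With the common shift, no member passed in limma for a single genotype in either step. Between day 0 and day 7 the count was 0 in Pax7+/+ and 0 in Pax7-/- (3 and 4 at an unadjusted p under 0.05), where 5.69% and 3.86% of all genes passed. Between day 7 and day 21 it was again 0 and 0 (14 and 14 unadjusted), where 5.85% and 0.834% of all genes passed. Over both genotypes 8 members passed between day 7 and day 21, where 7.32% of all genes did: Actc1, Myl7, Tnnt2, Acta1, Actn2, Ttn, Myh7 and Tnni3. Leaving out each array in turn gave 2 to 13, with Actc1 (1.97 ± 0.39) and Myl7 (2.07 ± 0.46) the largest in the full fit. Actn3 alone passed between day 0 and day 7 (-0.68 ± 0.17, adjusted p = 0.0184, where 9.77% of all genes passed), a call lost without either wide day 0 array.

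The genotypes were compared at each day to see whether loss of Pax7 alters these genes. With the common shift 0 of 40 members passed in limma at day 0, day 7 or day 21 (0, 1 and 3 at an unadjusted p under 0.05), where 1.28%, 0.627% and 4.89% of all genes passed. The same held for the differences between genotypes in each step, with 0 members in all 3 (1, 2 and 1 unadjusted), where 0.482%, 0.911% and 1.86% of all genes passed. Actc1 at day 21 was 0.79 ± 0.56 higher in Pax7-/- (95% interval -0.40 to 1.98), but 0.38 on narrow and 0.04 on wide arrays. At day 21 2 of the 3 Pax7-/- arrays are wide, against 1 of the 3 Pax7+/+ arrays. Tnnt2 differed by 0.85 on narrow and -0.33 on wide arrays.

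In the set-by-day fit, which lets the sets differ by day, 5 members were lower in Pax7-/- at day 21 and none higher, where 8.34% of all genes passed, 2.68% lower. Myl3 was lower by far the most (-1.18 ± 0.15, 0.442 times the Pax7+/+ level, adjusted p = 0.000299), by -0.81 on narrow and -1.55 on wide arrays. Ryr2 (-0.69 ± 0.17, adjusted p = 0.0214), Mybpc3 (-0.57 ± 0.17), Ldb3 (-0.48 ± 0.13) and Tnni1 (-0.47 ± 0.14) were the others. Within each set their Pax7-/- arrays all lie below their Pax7+/+ arrays, as for 7 members in all, where 17.3% of all genes do so. The other 35 members lay between -0.46 and 0.51, among them Actc1 (0.21 ± 0.18), Tnnt2 (0.26 ± 0.24) and Myl7 (-0.27 ± 0.27).

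Myl3 kept this call without each of the 18 arrays (-1.55 to -0.81). Without replicate 1 of Pax7-/- day 21, the only narrow array of that group, 7 members passed, 4 lower (Myl3, Mybpc3, Ryr2 and Ldb3) and 3 higher (Actn3, Myh3 and Neb). Myl3 was the only member called in every such fit, and the only 1 left without replicate 2 of Pax7+/+ day 21, the single wide array of that group (-0.81, adjusted p = 0.0191). The count was 2 without replicate 2 or 3 of Pax7-/- day 21, and 3 without replicate 2 of Pax7+/+ day 0, replicate 2 or 3 of Pax7+/+ day 7, or replicate 3 of Pax7-/- day 7. With the common shift Myl3 differed by -0.89 ± 0.41 (adjusted p = 0.27), so the call rests on the choice of fit.

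The time course of Myl3 shows where the genotypes part. From day 0 to day 7 the change was 1.63 in Pax7+/+ and 2.21 in Pax7-/- on wide arrays, and 0.30 and 0.33 on narrow arrays. From day 7 to day 21 it was 1.88 in Pax7+/+ and -0.11 in Pax7-/- on wide arrays, and 0.78 and -0.01 on narrow arrays. The difference between genotypes in the first step was 0.29 ± 0.21, and 0 of 40 members passed there in limma (1 unadjusted), where 1.04% of all genes did. In the second step it was -1.39 ± 0.22 in the set-by-day fit (adjusted p = 0.00409, where 2.13% of all genes passed). It was -1.16 with an adjusted p of 0.0601 without replicate 2 of Pax7-/- day 7, and -0.98 with an adjusted p of 0.645 with the common shift. Over the whole course from day 0 to day 21 the difference was -1.10 ± 0.21 (adjusted p = 0.00858, where 3.93% of all genes passed), or -0.72 with an adjusted p of 0.103 without replicate 2 of Pax7+/+ day 21.

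At day 0 and day 7 the set-by-day fit in limma called 0 of 40 members between genotypes (1 and 3 at an unadjusted p under 0.05), where 2.82% and 1.28% of all genes passed. Values at these days lay between -0.38 and 0.24, and between -0.61 and 0.31.

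**Figure D5:**
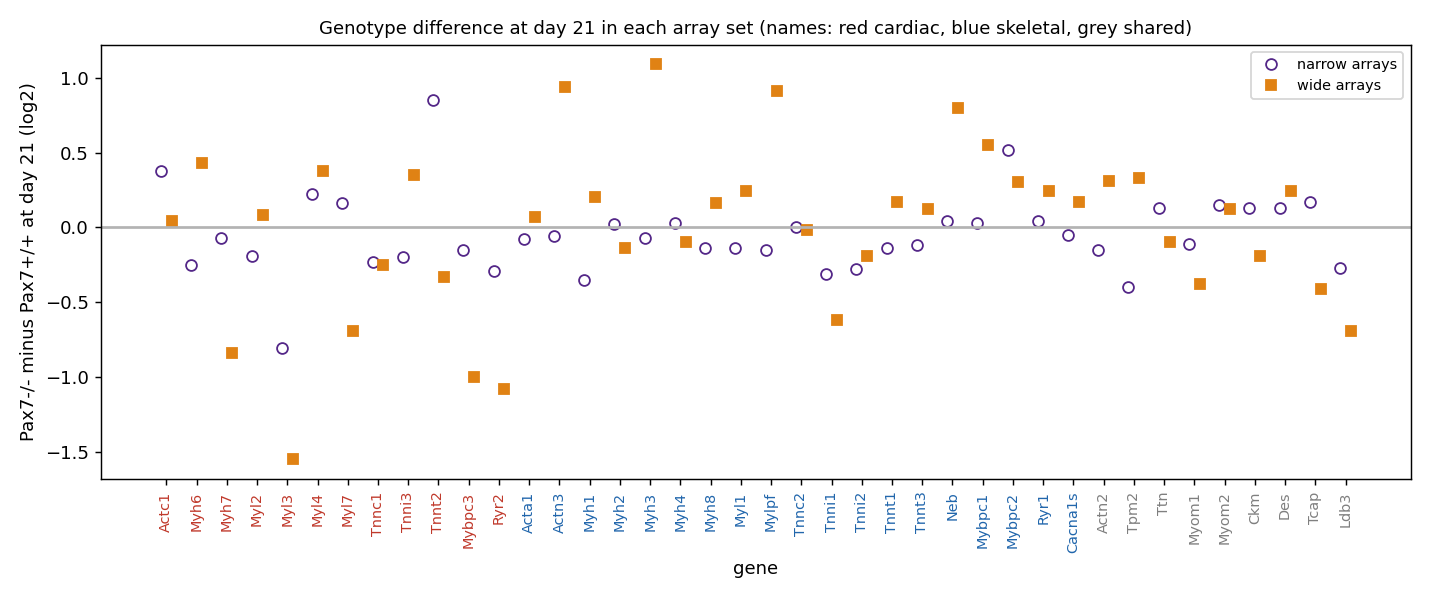
Pax7-/- minus Pax7+/+ at day 21 (log2) for each of the 40 members, open circles for narrow arrays and filled squares for wide arrays, with gene names coloured by class. Myl3 is lowest in both sets (-0.81 and -1.55), while Tnnt2 is positive on narrow and negative on wide arrays.

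Most of the listed cardiac identity genes were also higher on wide arrays at day 21. Of 13 cardiac identity genes 10 were higher on wide arrays at day 21 than at day 0, where 15.8% of all genes were. Among them were the transcription factors Gata4 (2.31 ± 0.16), Tbx20 (2.30 ± 0.29), Hand2 (1.73 ± 0.23) and Hand1 (1.72 ± 0.19), while Nkx2-5 did not pass (0.24 ± 0.20). Already at day 7, 5 of the 13 were higher than at day 0 on wide arrays (Gata4, Hand2, Hand1, Tbx5 and Isl1), where 10.3% of all genes were. On narrow arrays Gata4 alone passed (0.60 ± 0.14, adjusted p = 0.00863). The mean of the list on wide arrays was 4.55 to 4.69 log2 at day 0, 5.13 to 5.33 at day 7 and 5.47 to 5.92 at day 21.

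Of the 14 listed skeletal muscle identity genes 13 were measured. On wide arrays 3 of the 13 passed, where 31.6% of all genes did: Pax3 (1.05 ± 0.16) and Myod1 (0.53 ± 0.15), a myogenic determination factor, were higher, Mymx, a fusion protein, was lower (-1.67 ± 0.26), and Myog, the myogenic differentiation factor, differed by 0.05 ± 0.25. On narrow arrays 0 of the 13 passed in limma, and 1 had an unadjusted p under 0.05. The mean of the list on wide arrays was 4.30 to 4.48 at day 0 and 4.36 to 4.62 at day 21, ranges that overlap.

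Smooth muscle markers, which include actins and light chains close to the members, had 3 of 11 genes higher on wide arrays (Mylk 1.44 ± 0.23, Synpo2 and Tpm4), where 15.8% of all genes were. On narrow arrays 0 of 11 were higher in limma (1 had an unadjusted p under 0.05). Their mean level on wide arrays was 6.12 to 6.40 at day 0 and 6.57 to 6.68 at day 21. Fibroblast markers had 6 of 10 higher and 1 lower on wide arrays, where 15.8% of all genes were higher and 15.8% lower. Of 9 pluripotency genes 8 were lower at day 21 in each set, where 31.6% of all genes passed on wide and 8.05% on narrow arrays. The part of other cell types in the members' values was not tested.

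Of 55 further sarcomere and calcium-handling genes outside the 40, 53 were measured, and 20 were higher and 0 lower at day 21 on wide arrays in limma (23 at an unadjusted p under 0.05), where 15.8% of all genes were higher. Their median difference was 0.25, against 0.55 for the 40 members and 0.01 for all genes. The largest were Fhl2 (a LIM protein of heart muscle, 1.72 ± 0.16), Pdlim3 (a Z disc LIM protein, 1.34 ± 0.24), Ankrd1 (a cardiac ankyrin-repeat protein, 1.31 ± 0.30) and Hspb7 (a small heat shock protein of heart, 1.29 ± 0.12). On narrow arrays Cryab (0.88 ± 0.23) and Tpm1 (0.74 ± 0.13), the main striated muscle tropomyosin, were higher and Atp2a2 (-0.63 ± 0.10), the calcium pump of heart and slow muscle, was lower. Tpm1 was 0.74 ± 0.15 higher on wide arrays too, the same size in both sets.

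Between genotypes at day 21, markers moved in both directions in the set-by-day fit, where 8.34% of all genes passed, 2.68% lower. Gata4 (-0.97 ± 0.15, adjusted p = 0.00106) and Hand1 (-0.66 ± 0.18, adjusted p = 0.0271) were lower in Pax7-/- among the 13 cardiac identity genes, whose mean on wide arrays was 5.92 in Pax7+/+ and 5.47 to 5.74 in Pax7-/-. Of 10 fibroblast markers 8 were lower, led by Postn (-1.45 ± 0.28), Dcn (-1.41 ± 0.24), Lum (-1.34 ± 0.31) and Col1a1 (-1.29 ± 0.30). The fibroblast mean was 6.77 to 7.19 in Pax7+/+ and 6.21 in Pax7-/- on narrow arrays, and 8.75 and 7.12 to 7.83 on wide arrays. Of 9 pluripotency genes Utf1 (1.38 ± 0.26), Nanog (1.35 ± 0.32) and Sox2 (1.32 ± 0.20) were higher in Pax7-/- and Klf4 (-1.22 ± 0.17) lower. Their mean was 5.99 in Pax7+/+ and 6.99 to 7.04 in Pax7-/- on wide arrays, and 5.75 to 5.78 and 5.76 on narrow arrays. The smooth muscle gene Cnn1 was also higher in Pax7-/- (0.53 ± 0.16, adjusted p = 0.0469). Of the skeletal identity genes 0 of 13 passed in limma (0 unadjusted). Among the other striated muscle genes Srl (0.79 ± 0.21) and Jph1 (0.52 ± 0.13), both of the calcium-release junction, were higher and Fhl2 (-0.55 ± 0.15) and Csrp3 (-0.40 ± 0.11) lower. With the common shift, where 4.89% of all genes passed in limma, 0 of the 13 cardiac identity genes (3 unadjusted) and 3 of the 10 fibroblast markers were called. The same pluripotency genes, Srl and Jph1 were called in that fit too, while Cnn1, Fhl2 and Csrp3 were not. The part of the markers in the Myl3 difference was not tested.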

How the data were processed

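The deposited table gave log2 intensities of 41345 probe sets on 18 arrays. Per the submitters' processing notes the authors used RMA and Partek, with versions, order and whether all arrays were run together not given in the sources used here. A symbol came from the platform annotation: 23521 probe sets had 1 symbol, 1814 several and 16010 none. Only those with 1 symbol were used, and each of 22180 genes was read from its brightest probe set on average, 1082 of which had several. Of the members Myh8, Ryr1 and Ckm had a further probe set. None of these passed a test with the common shift, and they were not tested in the set-by-day fit. No detection call or filter on signal was applied, and the number of arrays limits the precision.

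Groups came from the labels. The model, in limma 3.58.1 (R 4.3.3), had 6 genotype-by-day groups and the array set (SD over probe sets above 1.6 for wide) as a block, with 11 residual degrees of freedom, moderated by eBayes, with Benjamini-Hochberg adjustment over all genes at 0.05. The set-by-day fit, with 9, and the means over both genotypes were added after seeing the data. Both pool the spread of narrow and wide arrays, and errors are SE unless stated. Code was tested on simulated data. Alternatives were no block, each set alone, scaling each array to 1 SD, quantile normalization, a filter on low signal, an intensity trend, a replicate block and leaving out each array.

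Same-numbered replicates did not vary together: correlations of their deviations ran from -0.22 to 0.23, so numbers were not taken as pairs. The members, gene lists and the array sets were chosen with earlier results of these data known. Members are named with values on every array where they passed with a 2-fold difference or where a set of isoforms turned on them, and of other lists up to 4 genes that passed, largest first. Nkx2-5, Myog, Tpm1 on wide arrays, and genes named to complete a count or a list were named after their values were seen. Promoters came from RefSeq, build GRCm38.p6, read with Python 3.11.15. Figures were drawn with matplotlib 3.10.9.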

Additional observations from a re-analysis of the deposited data

Results flagged for a closer look

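Ryr1, the skeletal calcium release channel, is listed because its arrays of 1 day lay above those of another day in 1 genotype and below them in the other genotype, within each set, although the narrow Pax7+/+ arrays read 5.64 on either side at their closest. From day 0 to day 7 it went from 5.36 to 5.53 and 5.50 log2 in Pax7+/+ on wide arrays and from 5.23 to 4.72 in Pax7-/-. The genotype difference in that step was -0.50 ± 0.18 and did not pass in limma with Benjamini-Hochberg adjustment (adjusted p = 0.357). From day 7 to day 21 the directions were exchanged, with a difference of 0.59 ± 0.19 (adjusted p = 0.211). A second, unused probe set of Ryr1 differed by -0.15 ± 0.18 in Pax7+/+ and -0.13 ± 0.18 in Pax7-/- from day 0 to day 7, in the same direction, with a genotype difference of 0.01 ± 0.26.

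Myl3 is listed because a test of the difference between genotypes passed in the set-by-day fit: -1.10 ± 0.21 for day 21 minus day 0 (adjusted p = 0.00858) and -1.39 ± 0.22 for day 21 minus day 7 (adjusted p = 0.00409), both by limma with Benjamini-Hochberg adjustment.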

How the results depend on the processing

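Of 86 member results that passed a test, taken with each alternative, 1544 of 1837 stayed on the same side of the threshold, 293 were lost and 0 changed direction. The number of members that passed depended most on how the array set entered. With no block for the set the count was 0 for day 21 minus day 0 in Pax7+/+, in Pax7-/- and over both genotypes, and 0 for the other steps over both genotypes. On wide arrays alone it was 1, 1 and 5 for the genotype difference at days 0, 7 and 21. For day 7 minus day 0 it was then 5, 8 and 11 (Pax7+/+, Pax7-/- and both), for day 21 minus day 7 18, 10 and 20, for day 21 minus day 0 22, 24 and 26, and for the genotype difference in the last 2 contrasts 2 and 1. On narrow arrays alone it was 2 for the genotype at day 21, 1 for day 21 minus day 7 in Pax7+/+, 1 for day 21 minus day 0 in Pax7-/-, and 0, 2 and 4 over both genotypes. With set-by-day terms it was 5 for the genotype at day 21, 2, 4 and 5 for day 7 minus day 0, 17, 7 and 17 for day 21 minus day 7, 19 and 17 for day 21 minus day 0 in each genotype, and 1 and 1 for the genotype difference in these.

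Scaling each array to 1 SD gave 2 and 1 for day 21 minus day 7 in each genotype, 6 for day 21 minus day 0 in Pax7+/+ and 2 for day 7 minus day 0 over both. Quantile normalization gave 1 for the genotype at day 21, 1 for day 7 minus day 0 in Pax7-/-, 3 and 1 for day 21 minus day 7, 7 for day 21 minus day 0 in Pax7+/+ and 2 for day 7 minus day 0 over both. Leaving out genes under the median level gave 1 and 4 for day 21 minus day 7 and minus day 0 in Pax7+/+, and 2, 5 and 10 over both. An intensity trend gave 3 for day 21 minus day 0 in Pax7+/+. The replicate block, for numbers that did not pair the samples, gave 1 for day 21 minus day 0 in Pax7-/- and 5 for day 21 minus day 7 over both. The cardiac minus skeletal median became -0.47 for the genotype at day 21 and 1.56 for day 21 minus day 7 in Pax7+/+ on wide arrays alone, and 0.11 for day 21 minus day 7 in Pax7-/- on narrow arrays alone.

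Leaving out each array in turn gave 0 to 0, 0 to 1 and 0 to 2 members for the genotype at days 0, 7 and 21, 0 to 1 and 0 to 0 for day 7 minus day 0, 0 to 2 and 0 to 9 for day 21 minus day 7, and 1 to 4 and 0 to 13 for day 21 minus day 0 (Pax7+/+ then Pax7-/-). Genotype differences in the steps gave 0 to 1 at most, and the means over both genotypes 0 to 2, 2 to 13 and 8 to 19. In the set-by-day fit it gave 0 to 3 on narrow and 21 to 28 on wide arrays, 14 to 20 for the set difference, 1 to 7 for the genotype at day 21, and 0 to 5 and 0 to 6 for its change since day 0 and day 7. The cardiac minus skeletal median ran from -0.21 to 0.32, -0.02 to 0.16 and -0.14 to 0.27 for the genotype at each day, -0.01 to 0.21 and -0.10 to 0.42 for day 7 minus day 0, and 0.24 to 0.85 and 0.30 to 0.64 for day 21 minus day 7. Low signal was not tested against background, since no detection values were used.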

Other observations

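Of 11 smooth muscle markers 2 were called between genotypes at day 7, where 1.28% of all genes were. In the set-by-day fit Myl9 (1.16 ± 0.15, adjusted p = 0.00265) and Cnn1 (0.72 ± 0.16, adjusted p = 0.034), a regulatory light chain and calponin of smooth muscle, were higher in Pax7-/- at day 7 by limma with Benjamini-Hochberg adjustment. At day 21 Cnn1 was still 0.53 ± 0.16 higher (adjusted p = 0.0469) and Myl9 differed by 0.10 ± 0.15 (adjusted p = 0.801). With the common shift for the array set, 4 of the 11 were lower at day 7 than at day 0 in Pax7+/+, where 5.69% of all genes passed. They were Acta2 (-2.06 ± 0.24), Myl9 (-1.54 ± 0.22), Tagln (-1.39 ± 0.18) and Cnn1 (-1.14 ± 0.17). In Pax7-/- 0 of the 11 passed in limma, and 0 at an unadjusted p under 0.05, with -0.32 ± 0.23, 0.42 ± 0.21, -0.11 ± 0.18 and -0.13 ± 0.16 for the same genes. The difference between genotypes in this step passed for Myl9 (1.96 ± 0.30, adjusted p = 0.00572), Acta2 (1.74 ± 0.33, adjusted p = 0.0267) and Tagln (1.28 ± 0.25, adjusted p = 0.0333). Acta2, Tagln and Myl9 were already lower in Pax7-/- at day 0 in the set-by-day fit, 3 of the 11, where 2.82% of all genes passed. With the common shift Tagln alone of the 11 was called lower at day 0.

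In the set-by-day fit Hand1, a factor of heart and extraembryonic mesoderm, was lower in Pax7-/- at day 7 as well (-0.88 ± 0.18, adjusted p = 0.0214 in limma). It was the only 1 of the 13 cardiac identity genes called there, where 1.28% of all genes passed. With the common shift 0 of the 13 passed (2 unadjusted), where 0.627% of all genes did.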
